A study of Rattus norvegicus with 6 samples.

Results

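The genes of sterol and fatty acid synthesis that are driven by the sterol regulatory element binding proteins (SREBPs) were examined in the rat mammary tumour line LN4D6, in 3 samples transfected with CREB3L1 and 3 untransfected samples. A list of 38 gene symbols was used, and a member was measured where the array held a probe set annotated with that symbol alone. This gave 35 genes on 59 probe sets, out of 14217 named genes and 31042 probe sets in all. Of the other listed symbols, Sc4mol and Scd1 are older names of Msmo1 and Scd, which were measured, and Hmgcs1 was not analysed here. The members were split into 18 sterol synthesis enzymes with the sterol carrier Stard4, 5 regulators of the SREBP pathway and 12 genes of fatty acid synthesis. Both groups of samples were LN4D6 cells kept under the same culture conditions. The transfected samples differed from the others by CREB3L1, and no empty-vector control is among the samples. The species of the construct, its promoter, and whether the transfected cells were 1 clone or a pool could not be read from the labels.

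SREBPs are transcription factors made as precursors in the membrane of the endoplasmic reticulum. When sterols are scarce, SCAP escorts them to the Golgi, where the site-1 and site-2 proteases free the active domain, which enters the nucleus and drives genes of cholesterol and fatty acid synthesis. When sterols are plentiful, INSIG proteins hold the SCAP-SREBP complex back. CREB3L1 is itself a membrane-bound transcription factor of the endoplasmic reticulum and is freed by the same pair of proteases.

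Values are expression levels on a log2 scale. A difference is the CREB3L1 mean minus the untransfected mean, given with its standard error. Tests were made with limma, and p-values were adjusted over all 31042 probe sets by the Benjamini-Hochberg method. A call is an adjusted p below 0.05. Where several probe sets read a gene, the one with the highest average signal stands for it. Background was set at 5 on the log2 scale, and 33 of the 35 members lay at or above it. With 3 arrays in each group the precision is limited.

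CREB3L1 replicate 3 stood apart from the other 5 arrays. The 3' control probe set of Gapdh exceeded the 5' one by 4.77 on this array, against -0.16 to -0.10 on the others. The same gap of beta-actin came to 7.44 there and to 2.35 to 3.41 elsewhere. Among named genes at or above background this array differed from the mean of CREB3L1 replicates 1 and 2 by a median of 0.30 in absolute value, while those replicates differed from each other by 0.07. Values without it stand beside those that changed a call, a sign or a size by much. The probe set of Creb3l1 itself read 3.39 ± 0.03 in CREB3L1 cells and 3.36 ± 0.02 in untransfected cells (SD, n = 3 each), below background in both, so it gives no check of the groups. Of 8 mammary epithelial markers 7 lay below background in both groups and Krt8, a keratin of simple epithelia, was at 13.17 ± 0.08 in CREB3L1 cells and 13.24 ± 0.07 in untransfected cells. The markers of fibroblasts, leukocytes and endothelium lay below background for 7 of 8, 4 of 6 and 5 of 5 measured genes, and 0 of them passed the test. The fibroblast gene above background was Col3a1, at 14.72 ± 0.14 in CREB3L1 cells and 14.53 ± 0.07 in untransfected cells. The leukocyte genes above it were Cd14 (10.77 and 11.06) and Csf1r (7.47 and 7.31). The epithelial and fibroblast lists each held 1 gene above background, so they do not separate these cell types here.

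Of the 35 members 2 rose in CREB3L1 cells and 0 fell. They were Insig1 among the regulators and Cyp51 among the sterol enzymes, and 0 of the 12 fatty acid genes passed. The share over all named genes was 0.577% higher and 1.52% lower, and among those at or above background 1.02% higher and 2.61% lower. Leaving out CREB3L1 replicate 3 brought the members to 5 higher and 2 lower, against 2.02% higher and 3.70% lower over all named genes. Among the 7714 named genes at or above background, 277 were higher and 498 lower in that fit. The groups did not overlap, with CREB3L1 higher, for 9 members (25.7%) and, with CREB3L1 lower, for 4 members (11.4%). The same held for 9.00% and 10.7% of all named genes, and for 14.7% and 16.5% of the genes at or above background. By arm, the members higher and lower in this way were 4 and 1 of 18 sterol genes and 2 and 1 of 5 regulators. In the fatty acid arm they were 3 and 2 of 12. The plot of members by array shows the 3 arms apart.

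**Figure D1:**
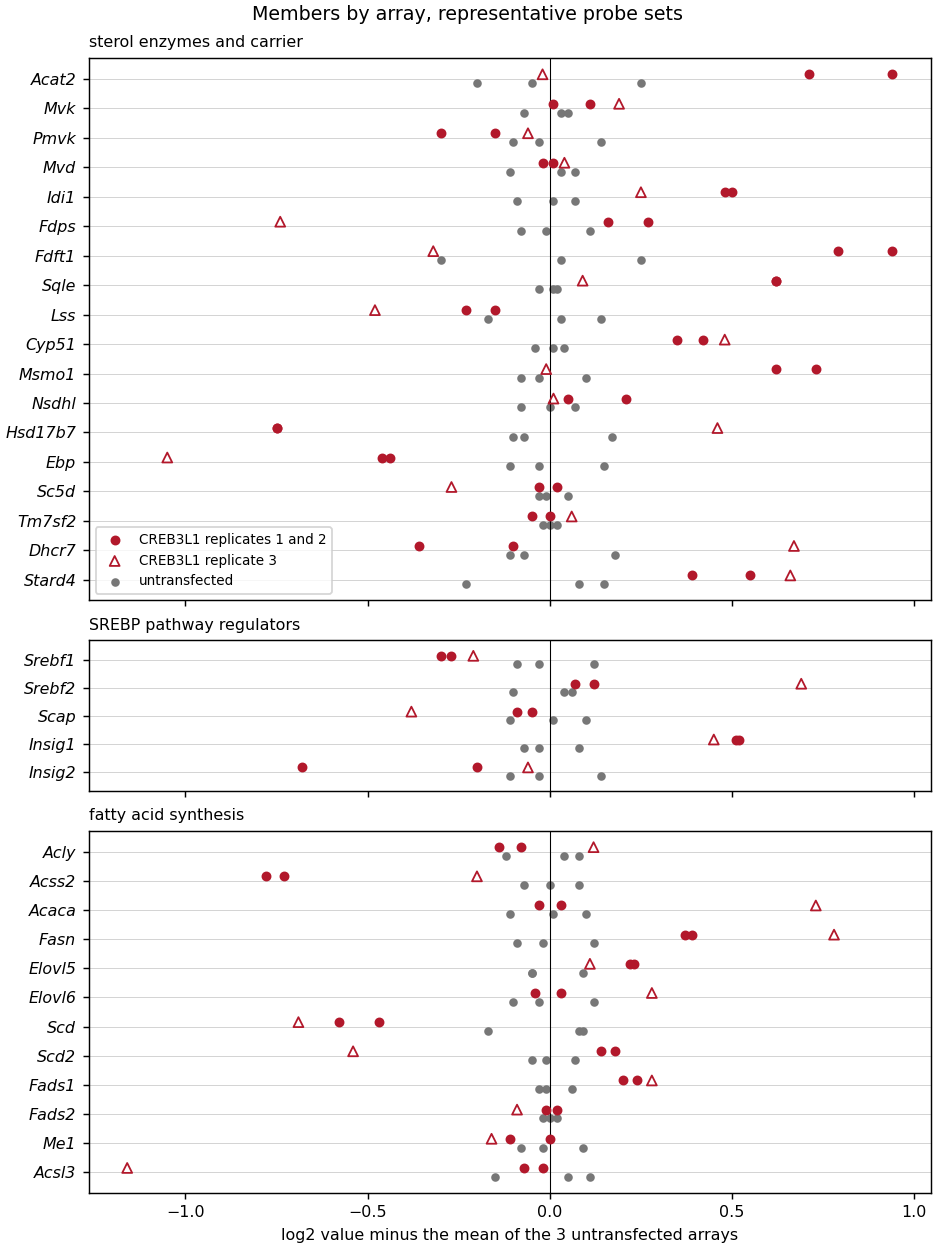
Log2 value of each member on each array minus the mean of the 3 untransfected arrays (x axis), one row per gene, for the sterol, regulator and fatty acid arms from top to bottom. Filled red points are CREB3L1 replicates 1 and 2, open triangles CREB3L1 replicate 3 and grey points the untransfected arrays. For Insig1 and Cyp51 all 3 CREB3L1 arrays lie above all untransfected ones, and for members such as Hsd17b7, Dhcr7 and Acsl3 the triangle lies far from the filled points.

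The starts of the called genes are shown because INSIG1 and CYP51 are textbook SREBP targets, together with that of Scd, the fatty acid member with the smallest p. Each run holds the 250 bases before and the 50 bases after the start of the gene, 5' to 3' on the gene's strand, from RefSeq. Capitals mark matches to the motifs searched.
Insig1, GRCr8 chr4:8057720-8058019, minus strand: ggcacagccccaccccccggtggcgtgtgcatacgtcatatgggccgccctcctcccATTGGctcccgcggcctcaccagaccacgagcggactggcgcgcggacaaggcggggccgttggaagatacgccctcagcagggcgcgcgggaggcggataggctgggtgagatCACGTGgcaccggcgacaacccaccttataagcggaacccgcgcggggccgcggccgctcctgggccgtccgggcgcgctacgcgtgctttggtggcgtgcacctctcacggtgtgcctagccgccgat
Cyp51, GRCr8 chr4:30991443-30991742, plus strand: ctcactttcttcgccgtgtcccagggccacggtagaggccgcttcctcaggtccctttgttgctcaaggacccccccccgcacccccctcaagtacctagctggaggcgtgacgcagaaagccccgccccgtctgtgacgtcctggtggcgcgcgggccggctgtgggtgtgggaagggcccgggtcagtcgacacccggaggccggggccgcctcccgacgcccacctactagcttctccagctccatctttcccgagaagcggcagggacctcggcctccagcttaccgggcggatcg
Scd, GRCr8 chr1:253231682-253231981, minus strand: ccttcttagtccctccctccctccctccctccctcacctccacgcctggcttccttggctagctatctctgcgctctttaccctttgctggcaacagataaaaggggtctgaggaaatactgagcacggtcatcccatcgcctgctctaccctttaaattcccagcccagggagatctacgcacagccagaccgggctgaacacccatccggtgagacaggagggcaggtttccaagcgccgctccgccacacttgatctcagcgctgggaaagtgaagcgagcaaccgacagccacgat

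The motifs were the classical sterol regulatory element, its shorter form CACCCCAC, which lies within the first, CCAAT, the site of the SREBP partner NF-Y, and ACGTG, a core of elements bound by the CREB3 family. Both strands were searched. The Insig1 window held CCAAT on the opposite strand at bases -193 to -189 from the start. It also held ACGTG on both strands at bases -79 to -74, where the matches overlap in the palindrome cacgtg. The Cyp51 and Scd windows held none of the 4 motifs, which says only that these letters are not in these windows. Of the 35 members, 28 had a promoter in the table. CCAAT was present in 21 of these (75.0%), against 37.5% of all 33469 promoter windows, and ACGTG in 7 of the 28, against 19.3%. CACCCCAC was found in Ebp only (3.57% of members, 2.70% of all windows), and the full classical element in 0 of the 28 and in 0.125% of all windows. These shares are descriptions, and a match is not a bound site.

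Among the regulators, Insig1 rose. It read 10.12, 10.13 and 10.06 in CREB3L1 cells, against 9.58, 9.54 and 9.69 in untransfected cells. All CREB3L1 arrays lay above all untransfected arrays, the one with a large Gapdh gap included, and the difference was 0.50 ± 0.05, which is 1.41-fold (adjusted p = 0.0178). Without CREB3L1 replicate 3 it was 0.52 ± 0.05 (adjusted p = 0.0136). The call was kept without untransfected replicate 3 and lost without any of the other 4 arrays (adjusted p = 0.0897 to 0.0965), at differences of 0.47 to 0.49. INSIG1 is both a brake on SREBP release and an SREBP target gene. In these bulk samples a higher level in every cell and a larger share of cells with a high level cannot be told apart, for this and every other gene.

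The other regulators did not pass the test. Insig2, the isoform known for control that depends less on SREBP, had 7.82, 7.34 and 7.96 in CREB3L1 cells, against 7.91, 7.99 and 8.16 in untransfected cells, and the groups overlapped. Its difference was -0.31 ± 0.18 (adjusted p = 0.807), and a second probe set gave 0.01 ± 0.07. The brighter one gave -0.44 ± 0.16 without CREB3L1 replicate 3 (adjusted p = 0.285). Srebf1, which encodes the SREBP known chiefly for fatty acid genes, had 10.03, 10.00 and 10.09 in CREB3L1 cells, against 10.27, 10.21 and 10.42 in untransfected cells. All CREB3L1 arrays lay below the untransfected ones, with a difference of -0.26 ± 0.06 that missed the threshold (adjusted p = 0.205, and 0.121 without CREB3L1 replicate 3). A dimmer second Srebf1 probe set gave -0.15 ± 0.19. Srebf2, which encodes the SREBP known chiefly for sterol genes, had 10.52, 10.47 and 11.09 in CREB3L1 cells, against 10.46, 10.30 and 10.44 in untransfected cells. The third CREB3L1 array carried most of its difference of 0.29 ± 0.18, which was 0.10 ± 0.06 without it (adjusted p = 0.866 and 0.678). Scap, the escort protein gene, gave -0.17 ± 0.11 (adjusted p = 0.877), with a 95% interval of -0.44 to 0.10, and -0.07 ± 0.07 without CREB3L1 replicate 3, with an interval of -0.25 to 0.11.

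The sterol arm held 1 call with all arrays. Cyp51, the lanosterol demethylase, read 12.90, 12.97 and 13.03 in CREB3L1 cells, against 12.51, 12.59 and 12.56 in untransfected cells. The groups were well apart and the difference was 0.41 ± 0.05, which is 1.33-fold (adjusted p = 0.0244). The call was kept without CREB3L1 replicate 3 (adjusted p = 0.0181) and lost without any other single array (0.0544 to 0.125), at differences of 0.39 to 0.45. The second Cyp51 probe set gave 11.72, 11.74 and 11.44 in CREB3L1 cells, against 11.53, 11.30 and 11.40 in untransfected cells. Here the third CREB3L1 array fell among the untransfected ones, and the difference of 0.22 ± 0.10 did not pass (adjusted p = 0.663, and 0.32 ± 0.07 with 0.105 without that array).

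Without CREB3L1 replicate 3, 4 sterol genes rose and 1 fell, against 1 and 0 with all arrays. Besides Cyp51 the genes that rose were Idi1, Sqle and Msmo1. Sqle, squalene epoxidase, a rate-limiting step of the later pathway, had 10.00, 10.00 and 9.47 in CREB3L1 cells, against 9.35, 9.40 and 9.39 in untransfected cells. CREB3L1 replicates 1 and 2 were alike and replicate 3 lay just above the untransfected arrays. The difference was 0.44 ± 0.16 with all arrays (adjusted p = 0.421) and 0.62 ± 0.04 without replicate 3 (adjusted p = 0.00279). Idi1, isopentenyl diphosphate isomerase, had 12.34, 12.32 and 12.09 in CREB3L1 cells, against 11.91, 11.85 and 11.75 in untransfected cells. The groups did not overlap, and the difference was 0.41 ± 0.09 with all arrays (adjusted p = 0.136) and 0.49 ± 0.06 without replicate 3 (adjusted p = 0.0181). On a second, dimmer Idi1 probe set the groups overlapped, with -0.11 ± 0.68 (adjusted p = 0.9998). It gave 0.64 ± 0.23 without replicate 3 and was not called there either (adjusted p = 0.301). The mean of the Idi1 probe sets gave 0.15 ± 0.37 with all arrays (adjusted p = 0.9998). Msmo1, the methylsterol oxidase that acts after Cyp51, had 12.91, 13.02 and 12.28 in CREB3L1 cells, against 12.26, 12.39 and 12.21 in untransfected cells. Replicate 3 lay among the untransfected arrays, and the difference was 0.44 ± 0.21 with it (adjusted p = 0.652) and 0.67 ± 0.07 without it (adjusted p = 0.0126).

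**Figure D2:**
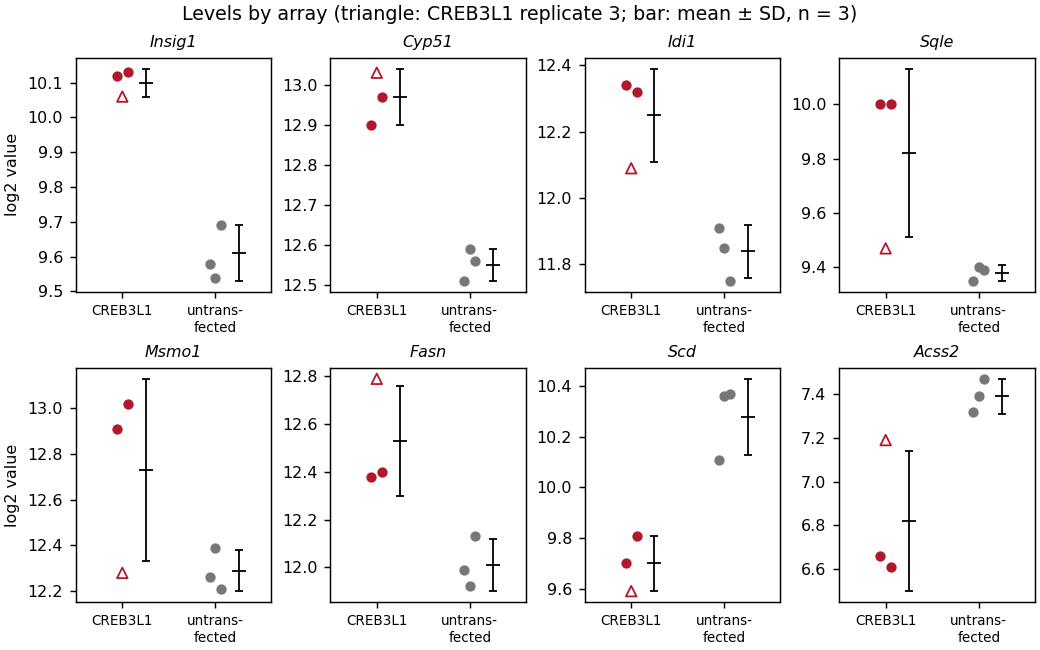
Log2 values by array of 8 members, with CREB3L1 left and untransfected right in each panel, and the mean ± SD (n = 3) as a bar beside the points. The y axes differ and do not start at 0. Insig1 and Cyp51 are higher on all 3 CREB3L1 arrays, while for Sqle and Msmo1 the triangle of CREB3L1 replicate 3 lies near the untransfected points.

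The gene that fell without CREB3L1 replicate 3 was Hsd17b7, a ketosteroid reductase of sterol demethylation. It had 8.84, 8.84 and 10.05 in CREB3L1 cells, against 9.52, 9.49 and 9.76 in untransfected cells. The third CREB3L1 array lay above all others and the first 2 below all untransfected arrays, so that the difference was -0.35 ± 0.36 with all arrays (adjusted p = 0.9998) and -0.75 ± 0.09 without it (adjusted p = 0.0188). The second Hsd17b7 probe set, dimmer on these arrays, gave -0.08 ± 0.14, and 0.08 ± 0.06 without replicate 3 (adjusted p = 0.782), so its probe sets disagreed. Ebp, the sterol isomerase, had 8.91, 8.89 and 8.30 in CREB3L1 cells, against 9.50, 9.24 and 9.32 in untransfected cells. It lay lower on every CREB3L1 array, with the lowest difference of all members, -0.65 ± 0.19, but missed the threshold with all arrays (adjusted p = 0.285) and without replicate 3 (-0.45 ± 0.08, adjusted p = 0.0554).

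At the head of the pathway the values were mixed. Acat2, the thiolase that makes acetoacetyl-CoA, had 10.82, 11.05 and 10.09 in CREB3L1 cells, against 10.06, 10.36 and 9.91 in untransfected cells. Its difference was 0.55 ± 0.28 (adjusted p = 0.722), and 0.83 ± 0.15 without the third CREB3L1 array, which lay among the untransfected ones (adjusted p = 0.0561). The genes of the mevalonate steps lay closer to 0. Mvk, mevalonate kinase, gave 0.10 ± 0.06 with a 95% interval of -0.05 to 0.25. Its second probe set above background gave -0.50 ± 0.59, with an interval of -1.99 to 0.99, and 0.18 ± 0.09 without replicate 3. Pmvk, the next kinase, gave -0.17 ± 0.09 with an interval of -0.40 to 0.05, and Mvd, the decarboxylase, 0.02 ± 0.06 with an interval of -0.13 to 0.16. A change of 2-fold lies outside the Pmvk and Mvd intervals, each of which holds for 1 gene alone, but inside that of the second Mvk probe set. Fdps, farnesyl diphosphate synthase, gave -0.11 ± 0.28, and 0.21 ± 0.07 without replicate 3 (adjusted p = 0.272). That array differed from the other CREB3L1 arrays by -0.95.

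Fdft1, squalene synthase, had 9.94, 10.09 and 8.83 in CREB3L1 cells, against 9.40, 9.18 and 8.85 in untransfected cells. The third CREB3L1 array was the lowest of the 6, and the difference of 0.48 ± 0.37 had an adjusted p of 0.9998. Without it the difference was 0.87 ± 0.17, the highest of all members in that fit, with an adjusted p of 0.0636. The second Fdft1 probe set had 7.0, 7.03 and 7.65 in CREB3L1 cells, against 6.6, 6.09 and 6.45 in untransfected cells, without overlap (0.85 ± 0.22, adjusted p = 0.239). Stard4, a carrier that moves cholesterol between membranes, had 9.11, 8.95 and 9.22 in CREB3L1 cells, against 8.33, 8.64 and 8.71 in untransfected cells. Its groups did not overlap, with a difference of 0.53 ± 0.12 that did not pass (adjusted p = 0.182, and 0.161 without CREB3L1 replicate 3). On the other Stard4 probe set above background the groups overlapped, with 0.19 ± 0.25 (adjusted p = 0.9998), and 0.46 ± 0.12 without that array (0.139). The mean of all Stard4 probe sets gave 0.22 ± 0.09 (adjusted p = 0.501).

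The remaining sterol genes did not pass with either set of arrays. Lss, lanosterol synthase, gave -0.29 ± 0.12 (adjusted p = 0.558), and -0.19 ± 0.10 without CREB3L1 replicate 3. Nsdhl, a sterol dehydrogenase, gave 0.09 ± 0.07, and a second probe set 0.49 ± 0.30. That second value was 0.15 ± 0.09 without CREB3L1 replicate 3. Sc5d, the sterol desaturase, was read by 3 probe sets, which gave -0.10 ± 0.08, -0.30 ± 0.59 and -0.12 ± 0.09. These were -0.01, 0.37 and -0.08 without CREB3L1 replicate 3, so the sign of the Sc5d value that was lowest turned. Dhcr7, which makes cholesterol from its direct precursor, gave 0.07 ± 0.28 with all arrays and -0.23 ± 0.12 without replicate 3 (adjusted p = 0.9998 and 0.548). Tm7sf2, a sterol reductase, lay below background in both groups, at 1.99 ± 0.06 in CREB3L1 cells and 1.99 ± 0.02 in untransfected cells. The median difference over the 18 sterol genes was 0.08, and 0.10 without replicate 3, beside -0.01 over all named genes with all arrays. Over named genes at or above background it was 0.01 with all arrays and -0.01 without replicate 3. Their median absolute difference was 0.17 and 0.13 in these fits. This measure leaves out the sign, so it cannot be compared with the sterol medians, in which higher and lower genes offset each other.

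**Figure D3:**
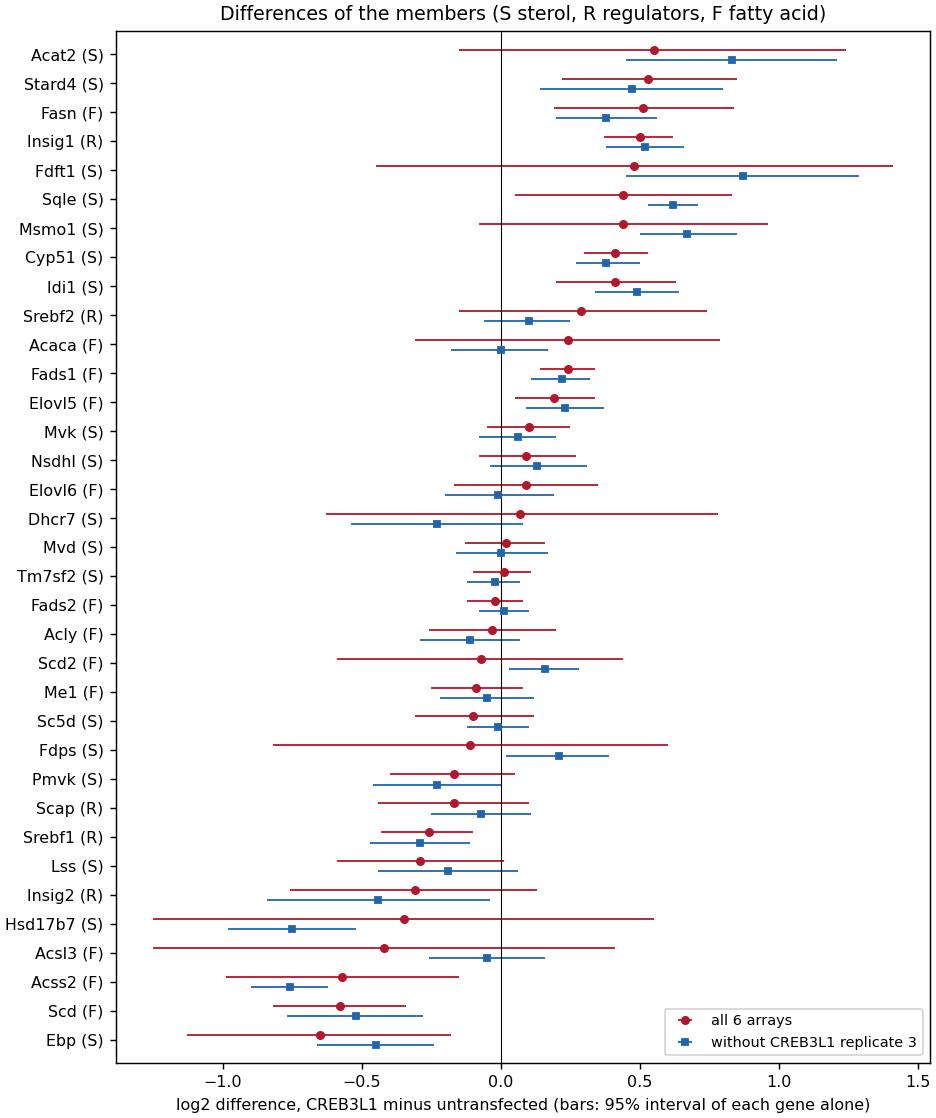
Log2 difference, CREB3L1 minus untransfected, of each member's representative probe set with all 6 arrays (red circles) and without CREB3L1 replicate 3 (blue squares). Bars are 95% intervals of each gene alone, not adjusted over genes, and letters after the names give the arm. Insig1 and Cyp51 keep narrow intervals above 0 in both fits, whereas Fdft1, Msmo1, Hsd17b7 and Acsl3 have wide intervals with all arrays that narrow without the third CREB3L1 array.

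In the fatty acid arm 0 of 12 genes rose or fell with all arrays, and the median difference was -0.03. The groups did not overlap for 5 genes, 3 higher and 2 lower in CREB3L1 cells. Of all named genes at or above background 14.7% were higher and 16.5% lower in this way, and 2 of 12 is near the share of lower genes. Scd, the stearoyl-CoA desaturase that makes monounsaturated fatty acids, had 9.70, 9.81 and 9.59 in CREB3L1 cells, against 10.11, 10.36 and 10.37 in untransfected cells. Each CREB3L1 array lay below each untransfected one, and the difference was -0.58 ± 0.10, just short of the threshold (adjusted p = 0.0755, and 0.0578 without CREB3L1 replicate 3). Acss2, which makes acetyl-CoA from acetate, had 6.66, 6.61 and 7.19 in CREB3L1 cells, against 7.32, 7.39 and 7.47 in untransfected cells. Its difference was -0.57 ± 0.17 (adjusted p = 0.296), and without replicate 3 it fell, by 0.76 ± 0.06 on the log2 scale, which is 1.69-fold (adjusted p = 0.00516).

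Of the genes that lay higher, Fasn, fatty acid synthase, was read by a pair of probe sets. The brighter one had 12.38, 12.40 and 12.79 in CREB3L1 cells, against 11.99, 11.92 and 12.13 in untransfected cells. The other had 10.34, 10.45 and 10.79 in CREB3L1 cells, against 9.76, 9.80 and 10.17 in untransfected cells. On both probe sets all CREB3L1 arrays lay above the untransfected ones, and the differences of 0.51 ± 0.13 and 0.62 ± 0.16 did not pass (adjusted p = 0.218 and 0.238). Without replicate 3 the brighter probe set gave 0.38 ± 0.07 (adjusted p = 0.0576). Fads1, a desaturase of polyunsaturated fatty acids, had 12.46, 12.50 and 12.54 in CREB3L1 cells, against 12.23, 12.25 and 12.32 in untransfected cells. The groups were apart by little, at 0.24 ± 0.04 (adjusted p = 0.0791, and 0.0681 without replicate 3). Elovl5, an elongase of polyunsaturated fatty acids, gave 0.19 ± 0.06 (adjusted p = 0.315).

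The other fatty acid genes did not pass in either fit. Acly, which splits citrate into acetyl-CoA, gave -0.03 ± 0.09 with a 95% interval of -0.26 to 0.20. Me1, malic enzyme, a source of NADPH, gave -0.09 ± 0.06 with an interval of -0.25 to 0.08, and a second Me1 probe set -0.27 ± 0.23, or -0.01 ± 0.06 without replicate 3. Acaca, acetyl-CoA carboxylase, gave 0.24 ± 0.22 with an interval of -0.31 to 0.79. Without replicate 3, on which it was highest, the Acaca interval was -0.18 to 0.17. Elovl6, which elongates saturated fatty acids, gave 0.09 ± 0.10 and -0.15 ± 0.16 on its probe sets, and -0.01 and 0.02 without replicate 3. Scd2, a second stearoyl-CoA desaturase, gave -0.07 ± 0.20 on the 1 of its 4 probe sets that lay above background. The Scd2 value turned to 0.16 ± 0.05 without CREB3L1 replicate 3, with the groups apart (adjusted p = 0.220). Acsl3, an acyl-CoA synthetase of lipid droplets, gave -0.42 ± 0.33, and -0.05 ± 0.08 without the third CREB3L1 array. Fads2 lay below background, at 1.79 ± 0.06 in CREB3L1 cells and 1.81 ± 0.02 in untransfected cells.

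CREB3L1 replicate 3 lay farther from the other CREB3L1 arrays on some probe sets of a gene than on others. For Idi1 it differed from the mean of replicates 1 and 2 by -0.24 on the brighter probe set and by -2.25 on the other. For Mvk the gaps were 0.12 and -2.04 on its probe sets above background, and for Sc5d they were -0.26, -2.0 and -0.12. Over the 35 representatives the median absolute gap was 0.28, while replicates 1 and 2 differed by a median of 0.05. The large 3' to 5' gap of the control genes is on this same array, and its part in these values was not tested. Of the 13 members with more than 1 probe set above background, 4 gave differences of opposite sign, namely Mvk, Idi1, Insig2 and Elovl6.

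**Figure D4:**
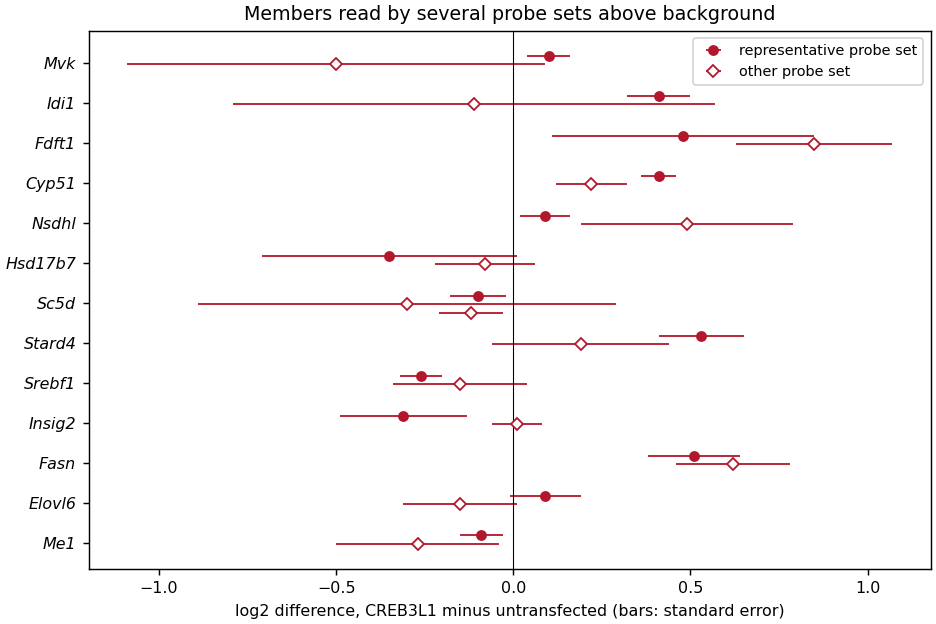
Log2 difference, CREB3L1 minus untransfected, with all 6 arrays for the 13 members read by more than 1 probe set above background. Filled circles are the representative probe sets, open diamonds the others, and bars the standard error. Cyp51, Fasn and Fdft1 lie above 0 on both probe sets, and the second Mvk, Idi1 and one Sc5d probe set have the widest bars.

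Around the pathway, the protease step and the fates of its products were read from lists drawn up from general knowledge. Earlier results of these data were known when the lists were chosen, so their counts are descriptions and not those of a blind choice. Over all named genes 0.577% rose and 1.52% fell with all arrays, and 2.02% rose and 3.70% fell without CREB3L1 replicate 3. Genes that passed only in that second fit are named because they passed it. Of 12 genes of SREBP processing and sterol-regulated degradation, 1 fell and 0 rose. It was Mbtps2, the site-2 protease that cuts SREBPs as well as CREB3L1, with 10.47, 10.54 and 10.57 in CREB3L1 cells, against 11.33, 11.40 and 11.29 in untransfected cells. The fall of 0.81 ± 0.05 was close to the same on every array (adjusted p = 0.00320). Mbtps1, the site-1 protease, gave -0.03 ± 0.21 (adjusted p = 0.9998), and -0.25 ± 0.09 without CREB3L1 replicate 3 (adjusted p = 0.322). In the fit without that array 2 genes of this list rose and 1 fell. Sec24d, a coat subunit of vesicles that leave the endoplasmic reticulum, had 11.41, 11.47 and 11.91 in CREB3L1 cells, against 10.54, 10.69 and 10.71 in untransfected cells. It was higher on every CREB3L1 array, with the largest difference of the list, 0.95 ± 0.15 (adjusted p = 0.0624), and 0.79 ± 0.07 without replicate 3 (adjusted p = 0.00722). Pgrmc1, a membrane-bound haem protein, gave 0.22 ± 0.10 with all arrays and 0.32 ± 0.05 without replicate 3 (adjusted p = 0.666 and 0.0358).

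Of 19 genes of sterol sensing, export, storage and transfer, 2 fell and 0 rose. Ch25h, which makes 25-hydroxycholesterol, an oxysterol that holds back SREBP release, had 9.21, 8.64 and 9.21 in CREB3L1 cells, against 10.72, 10.85 and 10.92 in untransfected cells. This is 3.5-fold lower (difference -1.81 ± 0.17, adjusted p = 0.0152). Npc2, a cholesterol carrier of the lysosome, averaged 13.99 ± 0.05 in CREB3L1 cells and 14.34 ± 0.05 in untransfected cells (SD, n = 3 each), a difference of -0.35 ± 0.05 (adjusted p = 0.0371). Leaving out 1 array ended the Npc2 call in every case but CREB3L1 replicate 3 (adjusted p = 0.110 to 0.153). The Ch25h call was lost without CREB3L1 replicate 1 or any 1 untransfected array (0.0544 to 0.0924). Without CREB3L1 replicate 3 the count was 3 lower, with Nceh1, a cholesteryl ester hydrolase, added at -0.33 ± 0.06 (adjusted p = 0.0470).

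Of 21 genes of triglyceride and phospholipid synthesis, 2 fell and 0 rose. Dgat2, which makes the final step to triglyceride, had 7.13, 7.05 and 7.60 in CREB3L1 cells, against 9.68, 9.47 and 9.08 in untransfected cells. It was 4.45-fold lower (difference -2.15 ± 0.22, adjusted p = 0.0173), and its second probe set gave -3.07 ± 0.51 (adjusted p = 0.0751). Plin3, a coat protein of lipid droplets, gave -0.48 ± 0.06 (adjusted p = 0.0251). Without CREB3L1 replicate 1 or 2 or untransfected replicate 1 or 2 both calls were lost (adjusted p = 0.0790 to 0.0993 for Dgat2 and 0.0675 to 0.126 for Plin3), and Plin3 also without untransfected replicate 3 (0.116). The count was 4 lower without CREB3L1 replicate 3. Plin2, another lipid droplet coat protein, gave -0.76 ± 0.17 with all arrays and -0.58 ± 0.06 in that fit (adjusted p = 0.155 and 0.0149). Dgat1, the other enzyme of the final step, gave -0.88 ± 0.33 with all arrays and -0.50 ± 0.06 in that fit (adjusted p = 0.472 and 0.0161).

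Of 18 genes of fatty acid activation and oxidation, 1 rose and 0 fell with all arrays. Acsl5, an acyl-CoA synthetase, gave 0.38 ± 0.05 (adjusted p = 0.0279), a call kept without CREB3L1 replicate 3 and lost without any other single array (0.0537 to 0.136). The groups did not overlap, with CREB3L1 lower, for 9 of the 18, against 10.7% of all named genes and 16.5% of those at or above background. Without CREB3L1 replicate 3, 4 of them fell, the mitochondrial oxidation genes Acaa2 (-0.72), Acadm (-0.66), Hadha (-0.42) and Hadhb (-0.28), and Acsl5 still rose. A second Acaa2 probe set, just above background, gave 0.22 ± 0.28 with all arrays and -0.10 ± 0.05 without replicate 3 (adjusted p = 0.9998 and 0.476). The isoprenoid branch genes (13 measured), the genes of NADPH and citrate supply (9) and the other elongases and desaturases (11) held 0 calls with all arrays. Their smallest p belonged to Dolk at 0.28 ± 0.09 (adjusted p = 0.350), Mlxip at 0.52 ± 0.10 (adjusted p = 0.104) and Hacd1 at 0.22 ± 0.04 (adjusted p = 0.111). Without CREB3L1 replicate 3 Mlxip, a glucose-sensing transcription factor, rose by 0.43 ± 0.07 (adjusted p = 0.0381), the 1 call of these 3 lists in that fit. Among 6 adipocyte markers 1 fell, Pparg, with -1.47 ± 0.10 (adjusted p = 0.00489), and the other 5, Adipoq and Lep among them, lay below background in both groups.

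**Figure D5:**
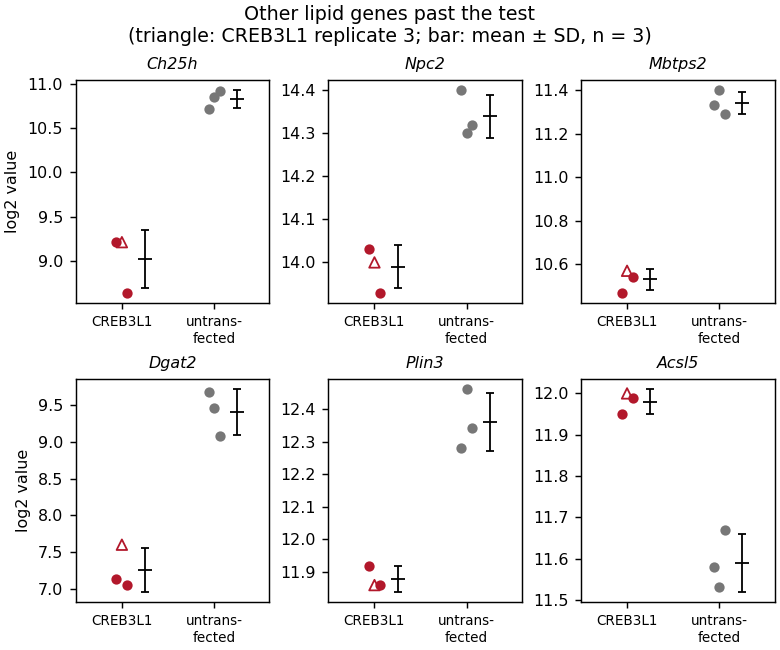
Log2 values by array of the 6 genes of the other lipid lists that passed the test with all arrays, with CREB3L1 left and untransfected right in each panel and the mean ± SD (n = 3) as a bar. The y axes differ and do not start at 0. Ch25h, Npc2, Mbtps2, Dgat2 and Plin3 are lower and Acsl5 is higher on all 3 CREB3L1 arrays, the triangle of replicate 3 included.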

How the data were processed

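Transcript levels were measured on 6 Affymetrix 3' expression arrays. The authors deposited 1 table of expression values, and the submitters' processing notes name RMA and Partek 6.6. The log base was not stated and the deposited values, 0.27 to 16.86, were read as log2. Samples were grouped by the label for what was transfected. Separate cultures are not mentioned, so the p-values cover the spread between these samples alone, and that spread may be technical. At most 10 probe sets were equal between any 2 arrays.

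Of 31099 probe sets 57 controls were set aside. Symbols came from GEO's platform annotation, and 20826 probe sets had 1 symbol, 436 several and 9780 none. Updating through RefSeq (GRCr8) changed 0 symbols. limma 3.58.1 in R 4.3.3 (lmFit, eBayes without trend, two-sided) was fitted to all 31042 probe sets and tested on simulated data. Members and lists were chosen with earlier results of these data known. Every measured member was named, with per-array values for members called in any fit that left out 1 array and the smallest p of each arm. Alternatives were quantile normalisation, median centring, leaving out dim probe sets, a mean-variance trend, robust eBayes, no moderation, array weights, leaving out each array, averaging probe sets, and background levels of 4 and 6.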

Additional observations from a re-analysis of the deposited data

How the results depend on the processing

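No paired analysis was possible because no replicate numbers link samples of the groups in the labels. Called sterol genes that were higher, 1 with all arrays, came to 0 with quantile normalisation, 0 with dim probe sets left out, 0 with a mean-variance trend, 0 without moderation, 4 with array weights and 0 to 4 with 1 array left out, and those that were lower to 0 to 1 with 1 array left out. Called regulators that were higher, 1 with all arrays, came to 0 with the trend, 0 without moderation and 0 to 1 with 1 array left out. Called fatty acid genes came to 2 higher and 2 lower with array weights, and 0 to 1 lower with 1 array left out. Over the whole table, 132 higher and 299 lower probe sets became 79 higher with the trend, 9 and 65 without moderation, 600 and 952 with array weights, and 28 to 479 and 116 to 756 with 1 array left out, both highest without CREB3L1 replicate 3.

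Insig1 stayed between 0.47 and 0.54 under these alternatives but lost its call with the trend (adjusted p = 0.123), without moderation (0.0913) and without untransfected replicate 1 (0.0965) or 2 (0.0897) or CREB3L1 replicate 1 (0.0900) or 2 (0.0960). Cyp51 stayed between 0.32 and 0.45 and lost its call with quantile normalisation (0.0541), with dim probe sets left out (0.0520), with the trend (0.0754), without moderation (0.111) and without any 1 array other than CREB3L1 replicate 3 (0.0544 to 0.125). Of the 6 called genes of the other lipid lists, Mbtps2 kept its call in all of these and the others did not. The cause was not tested. Of the uncalled members, 10 changed sign in at least 1 alternative, and 0 called differences did. The count of members below background was 2 at a level of 4, 5 or 6.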
